A study of Danio rerio with 57 samples.

Results

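The spread of H3K9me3 over the zebrafish genome between 2.5 and 3 hours post fertilisation (hpf) was followed by comparing the H3K9me3 region list of each time, place by place. H3K9me3 is histone H3 trimethylated at lysine 9, the mark of constitutive heterochromatin, which packages repeats and transposable elements into a silent form. In many animals the mark is low in the first cleavage divisions and is laid down again as the embryo approaches zygotic genome activation, the point at which embryonic genes take over from maternal RNA. Heterochromatin is known to spread from sites where it is first nucleated, because HP1 proteins that bind the mark recruit the methyltransferases that write it on neighbouring nucleosomes. In the zebrafish, 2.5 to 3 hpf spans the last rapid, synchronous cleavages and the onset of the midblastula transition.

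The material was whole AB strain embryos, profiled by CUT&RUN, in which an antibody tethers a nuclease that releases the DNA under the marked nucleosomes. The labels give 3 H3K9me3 libraries at 2.5 hpf and 3 at 3 hpf in the time course, all made with an Abcam antibody and an E. coli DNA spike-in, and 2 IgG control libraries at each of these times. No other treatment or allele is given for any of these groups, and how many embryos made up a library was not stated. A confirmation experiment holds 9 more H3K9me3 libraries at 2.5 hpf and none at 3 hpf, and the list named for 2.5 hpf does not say which experiment it came from. Because whole embryos were used and cells divide over this interval, more marked nuclei and more mark per nucleus cannot be told apart.

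Each time is represented by 1 pooled list of regions with no value per library. No spread between embryos and no depth is known, so nothing below carries an error or a test, and a region missing from a list may be unmarked or merely below the listing threshold. After touching regions had been merged, chromosomes 1 to 25 held 19207 regions at 2.5 hpf and 29303 at 3 hpf, out of 174771 merged regions in the 6 lists of the series. These numbers came from 21196 and 32756 listed regions, of which 831 and 1193 lay on unplaced scaffolds. All regions were used, chosen by position alone. With a build not given in the sources used here, regions are named by their listed positions and no gene is named.

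Coverage rose from 22.1 Mb (1.64% of the chromosomes) at 2.5 hpf to 44.5 Mb (3.31%) at 3 hpf, a ratio of 2.01. The number of regions rose 1.53-fold and their mean width 1.32-fold, so both more regions and wider regions made up the larger coverage. Median width went from 657 bp to 848 bp. Of the length marked at 2.5 hpf, 72.9% was still marked at 3 hpf and 27.1% (6.0 Mb) was not. Seen from 3 hpf, 36.2% of the length had been marked before and 63.8% (28.4 Mb) was gained. The increase was smaller, a ratio of 1.57, when the 3 hpf list was cut to as many listed regions as at 2.5 hpf by keeping those with the lowest deposited p-values.

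Regions of 2.5 hpf were sorted by what lay over them at 3 hpf. Of the 19207, 12832 were kept, meaning that at least 1 bp was still covered, which is 66.8% of all, and 6375 (33.2%) were lost. Most of the kept regions, 10545 or 54.9% of all, were in a one-to-one pair with a single 3 hpf region. Another 2157 (11.2%) had become part of a fused region that joined several earlier ones. In all, 161 regions overlapped 2 or more 3 hpf regions. Of these, 130 lay in no fused region and were counted as split, a class that made up 0.677% of the list. The 3 hpf list was sorted in the same way. New regions, with no base covered at 2.5 hpf, numbered 17452 (59.6% of 29303, or 45.7% of the 3 hpf list cut by p-value to the listed number of 2.5 hpf), one-to-one partners made up 36.0%, fused regions 3.46% and pieces of split regions 0.996%. The cut removed new regions more often, since their deposited p-values were higher, so part of the lower new share is built in.

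New regions were many but narrow, and fused regions few but wide. New regions held 59.6% of the 3 hpf list but 34.6% of its length, with a median width of 633 bp and quartiles of 500 and 979 bp. Fused regions held 3.46% of the list and 13.1% of its length, with a median width of 4772 bp. One-to-one regions held 51.1% of the length with a median width of 1570 bp. Of the 28.4 Mb gained, 15.4 Mb (54.2%) lay in new regions, 9.99 Mb (35.2%) in one-to-one regions, 2.84 Mb (10%) in fused regions and 0.169 Mb in split pieces. The share of the gain in regions that overlap an earlier one was thus 45.8%. It was 52.3%, the larger part, with the 3 hpf list cut by p-value to the listed number of 2.5 hpf. That cut removed new regions more often, since their deposited p-values were higher, so part of the higher share is built in. With regions named primary the share of the gain was 29.6%, and with regions of deposited p-value under 0.05 it was 20.6%. These last 2 settings cut both lists, so an earlier region outside the cut no longer counted as overlapped. Part of the lower shares is therefore built in. On the other side of the balance, 4.04 Mb of the 6.0 Mb no longer covered belonged to lost regions. The remaining 1.96 Mb, or 10.9% of the length of kept regions, had been trimmed from kept regions.

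Whether a region was kept followed its width at 2.5 hpf. Among regions of 500 bp or less, 3022 of 6861 (44.0%) were kept. Between 500 bp and 1 kb 67.9% were kept, between 1 and 2 kb 88.8%, between 2 and 5 kb 94.9%, and between 5 and 10 kb 97.8% of 411 regions. Over 10 kb, 44 of 46 were kept. Lost regions had a median width of 500 bp and kept regions 859 bp, and 92.1% of lost regions were 1 kb wide or less, against 68.7% of all regions. A wide region offers more bases to be overlapped, and the part of this in the trend was not tested. Asking for at least 50% of a region to be covered instead of 1 bp lowered the kept share from 66.8% to 61.0%. Exactly 500 bp was the width of 12.5% of the listed chromosomal regions at 2.5 hpf and of 8.54% at 3 hpf.

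The 3 hpf list had grown most among wide regions. The number of regions of 500 bp or less was 6861 at 2.5 hpf and 7373 at 3 hpf, a ratio of 1.07. The ratio was 1.46 between 500 bp and 1 kb, 1.90 between 1 and 2 kb, 2.23 between 2 and 5 kb and 2.99 between 5 and 10 kb. Regions over 10 kb went from 46 to 182, a ratio of 3.96. Of the 3 hpf regions of 500 bp or less 87.6% were new, against 48.0% between 1 and 2 kb and 4.89% between 5 and 10 kb. Fused regions made up 0.0543% of the narrowest class, 8.36% between 2 and 5 kb, 30.7% between 5 and 10 kb and 105 of the 182 regions (57.7%) over 10 kb.

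**Figure D1:**
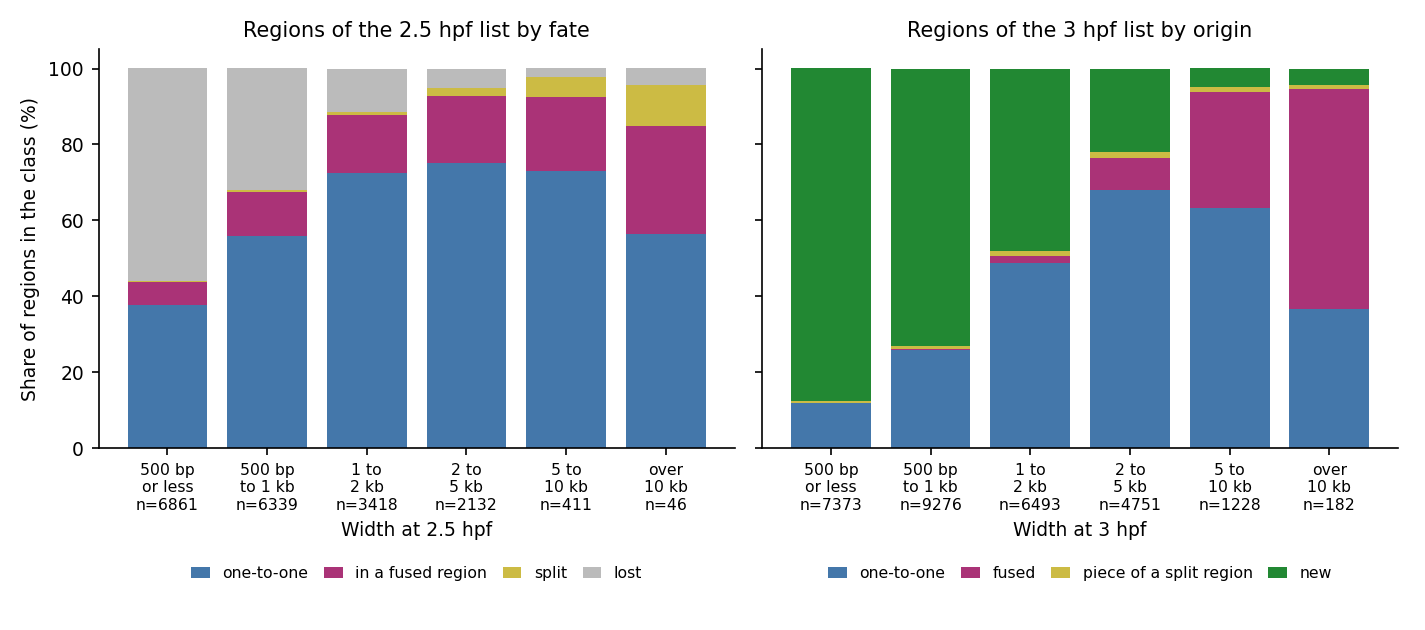
Left, share of 2.5 hpf regions with each fate (%) by width at 2.5 hpf; right, share of 3 hpf regions of each origin (%) by width at 3 hpf, with the number of regions (n) under each bar. The lost share falls from 56.0% of regions of 500 bp or less to 2.19% between 5 and 10 kb, and fused regions reach 57.7% of the 3 hpf regions over 10 kb.

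In the one-to-one pairs the same place can be measured at both times. Widened pairs, at least 1.1 times as wide at 3 hpf, numbered 7711 of 10545 (73.1%), 1395 (13.2%) had narrowed by the same factor and 1439 (13.6%) lay between. Over these places the median width grew from 833 bp to 1570 bp, and the median ratio within a pair was 1.49 (quartiles 1.07 and 2.25). The median change was 478 bp, with quartiles of 75 and 1196 bp. Regions at least 2 times as wide made up 31.1% of pairs and those at least 5 times as wide 4.09%, while 1.38% had shrunk to 50% of their width or less. The tenth of pairs with the most newly covered bases held 37.4% of the gain in pairs. Asking for a ratio of at least 1.5 left 49.5% of pairs widened.

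Growth was seen at both edges. Both edges had moved outward in 5287 pairs (50.1%) and inward in 666 (6.32%). The start had moved out in 70.8% of pairs, by a median of 343 bp, and the end in 72.9%, by a median of 405 bp. Of the widened pairs, 66.7% had grown on both sides, against 50.1% of all pairs. Widened pairs were picked by their change in width, to which both edges add, so part of this difference is built in. In widened pairs grown on both sides, the side with more growth held a median of 76.0% of it. That share is at least 50% by definition, and no value for a random split was computed beside it. The narrowest regions had widened most in proportion. The median ratio was 1.83 for regions of 500 bp or less at 2.5 hpf, 1.43 between 1 and 2 kb, 1.23 between 2 and 5 kb and 1.09 between 5 and 10 kb, and the share widened went from 82.8% to 47.7% over these classes. The 26 pairs over 10 kb widened in 50% of cases. In bases the median gain was 378, 598, 692 and 520 bp in the same 4 classes and 1631 bp over 10 kb. The classes were set on the width that the ratio is divided by, and no merged region was narrower than 250 bp in either list, so part of the higher ratio of narrow regions is built in.

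**Figure D2:**
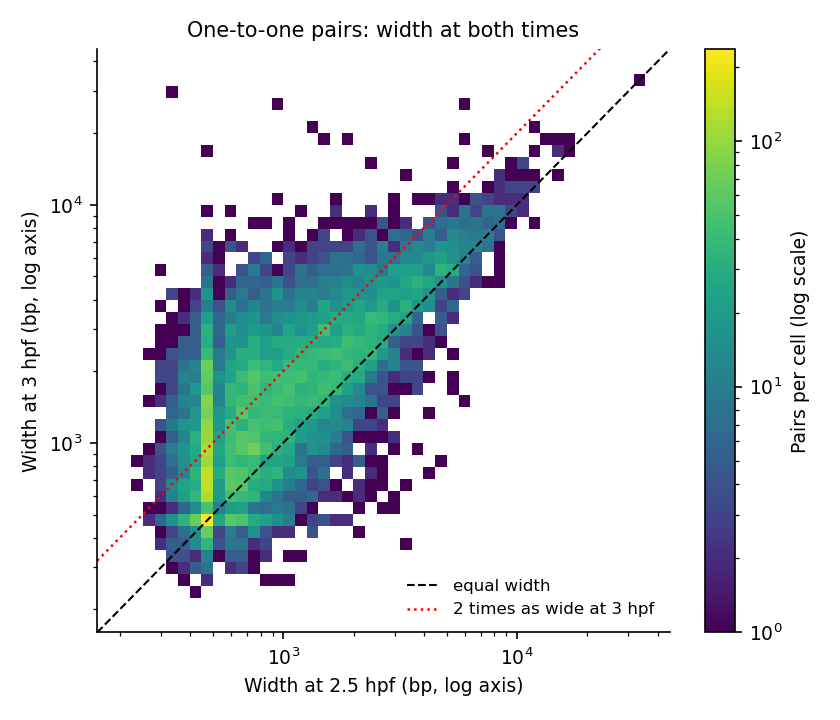
Width at 3 hpf against width at 2.5 hpf (bp, both axes logarithmic) for the 10545 one-to-one pairs; colour gives the number of pairs in a cell on a log scale, the dashed line marks equal width and the dotted line a width 2 times as large at 3 hpf. Most pairs lie above the dashed line, and the bright column holds regions of 500 bp and slightly narrower at 2.5 hpf, which spread upward in width.

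Fusion mostly joined close neighbours in pairs. Of the 1014 fused regions, 900 (88.8%) joined 2 earlier regions, 99 joined 3, 13 joined 4 and 2 joined 5. The earlier regions within a fused region summed to a median of 2365 bp, and the fused region measured 4772 bp. The gain in fused regions was divided between 1.62 Mb (57.0%) filled in between the earlier regions and 1.22 Mb (43.0%) added beyond their outer edges. Outward growth was present in 896 fused regions (88.4%) and exceeded the filled length in 378. With both lists cut, the fused share of 3.46% was 1.04% for regions named primary and 0.453% at a deposited p-value under 0.05. These settings left 3404 and 1705 of the 19207 regions at 2.5 hpf. An earlier region outside the cut no longer counted as joined, so part of the lower shares is built in, and its size was not tested. Against the full 2.5 hpf list, 786 of 6677 listed 3 hpf regions named primary lay in fused places. So did 485 of 3355 with a deposited p-value under 0.05, and 1415 of all 31563 listed regions.

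Gaps were closed according to their length. The median gap between neighbouring 2.5 hpf regions was 24196 bp over all 19182 gaps and 1067 bp over the 1145 that were closed. Of gaps under 500 bp 65.5% were closed, between 500 bp and 1 kb 48.2%, between 1 and 2 kb 26.4%, between 2 and 5 kb 10.4% and between 5 and 10 kb 1.26%. Of 12770 gaps of 10 kb or more, 4 were closed, the longest 42245 bp. A gap with a lost neighbour cannot be closed by definition. Where both neighbours were kept, 245 of 258 gaps under 500 bp (95%) were closed, 82.7% between 500 bp and 1 kb, 51.8% between 1 and 2 kb and 21.0% between 2 and 5 kb.

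New regions lay nearer to earlier ones than the uncovered genome does on the whole. The median distance from a new region to the nearest 2.5 hpf region was 16.4 kb, with quartiles of 4.70 and 46.9 kb. Set against the sequence uncovered at 2.5 hpf, there were 34.5 new regions per Mb of sequence under 1 kb from an earlier region, 28.5 from 1 to 5 kb, 19.1 from 5 to 10 kb, 13.4 from 10 to 50 kb, 8.76 from 50 to 100 kb and 6.06 at 100 kb or more, against 13.2 over all uncovered sequence. The nearest class thus held 5.69 times as many per Mb as the farthest. Regions were placed by their nearest edge but sequence base by base, so regions counted as near also reach into farther sequence. Part of this ratio is therefore built in. Counted in bases of new regions, 1.67% of the uncovered sequence was marked under 1 kb and 0.443% at 100 kb or more. Even so, 26% of new regions were within 5 kb of an earlier region, and 1886 (10.8%) were 100 kb or more from any. New regions near earlier ones were also wider. Their median width was 783 bp under 1 kb, 631 bp from 10 to 50 kb and 566 bp at 100 kb or more, and 10.1%, 6.07% and 2.49% of them were over 2 kb.

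Newly marked bases were also counted whatever their class. Bases added to one-to-one and fused regions adjoin an earlier region by definition, so a high share at short range is partly built in. Within 1 kb of a 2.5 hpf region 27.6% of the uncovered bases were marked at 3 hpf, from 1 to 5 kb 5.84%, from 5 to 10 kb 2.17%, from 10 to 50 kb 1.23% and at 100 kb or more 0.443%. Counting bases of new regions alone, the share was 1.67% under 1 kb, 2.95% from 1 to 5 kb, 2.03% from 5 to 10 kb and 1.21% from 10 to 50 kb, highest from 1 to 5 kb and not in the nearest class. Sequence within 5 kb of an earlier region made up 11.5% of the uncovered bases and 58.9% of the gain of all classes. Survival of the earlier regions by distance to their nearest neighbour differed between narrow and wide ones. Regions of 1 kb or less were kept in 66.7% of cases with a neighbour under 1 kb away, 57.6% at 1 to 5 kb, 51.4% at 5 to 10 kb and 55.1% at 100 kb or more. For regions over 1 kb the order ran the other way, from 89.1% with a neighbour under 1 kb away to 95.2% at 100 kb or more. Lost regions lay a median of 5.27 kb from the nearest 3 hpf region of any class, new ones included. Of the 6375, 1317 were within 1 kb of one, and no background share was computed for these distances.

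**Figure D3:**
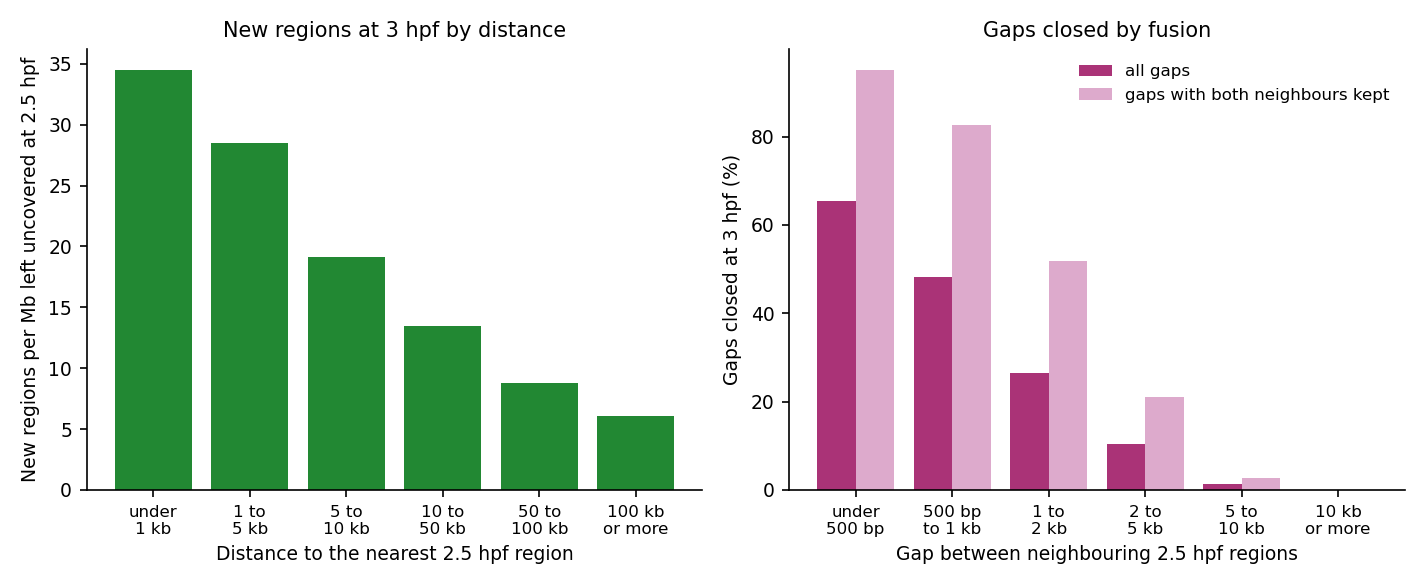
Left, new 3 hpf regions per Mb of sequence uncovered at 2.5 hpf, by distance to the nearest 2.5 hpf region; right, share of gaps between neighbouring 2.5 hpf regions that were closed at 3 hpf (%), by gap length, over all gaps and over gaps with both neighbours kept. New regions, placed by their nearest edge while sequence is placed base by base, fall from 34.5 to 6.06 per Mb with distance. Closed gaps fall from 65.5% under 500 bp to 1.26% between 5 and 10 kb.

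The step was much alike on most chromosomes. Covered share rose on all 25, with ratios from 1.83 on chromosome 12 to 2.40 on chromosome 17 and a median of 2.01. Chromosomes 25 and 22 were the most covered at both times, with 2.28% and 2.15% at 2.5 hpf and 4.59% and 4.27% at 3 hpf, and they also received the most new regions, 16.6 and 16.2 per Mb against a median of 12.6. Chromosome 21 was the least covered at 2.5 hpf, with 1.29%. It had the lowest fused share, 1.96%, and the largest rise in region number, 1.74-fold, with a covered ratio of 2.24. The fused share was highest on chromosomes 16 (4.31%) and 13 (4.25%). New regions made up between 56.2% of the 3 hpf list on chromosome 19 and 63.6% on chromosome 9.

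Chromosome 4, whose long arm is known as a repeat-rich and late replicating heterochromatic arm, stood lowest in the share kept. There 814 of 1441 regions (56.5%) were kept, against 66.8% of all regions, 63.8% on the next lowest, chromosome 11, and 72.0% on the highest, chromosome 13. The shortfall was present both from 28 Mb to the end (56.1% of 1228) and before 28 Mb (58.7% of 213). It was seen at equal width as well. From 28 Mb onward 36.2% of regions of 500 bp or less and 58.3% between 500 bp and 1 kb were kept, against 44.8% and 68.7% on the other 24 chromosomes, and between 1 and 2 kb 81.9% against 89.2%. The median deposited signal was also lowest on chromosome 4, 51.5 at 2.5 hpf against a median of 68.1 over chromosomes, and 98.6 at 3 hpf against 113. Median region width was lowest there too, 615 bp at 2.5 hpf and 771.5 bp at 3 hpf, and signal was not compared at equal width. The part of signal in the lower share was not tested. Regions lost from 28 Mb onward were found again at 3.5 hpf in 50.3% of cases, at 4 hpf in 58.8% and at 4.5 hpf in 54.0%, against 51.0%, 55.4% and 40.1% on the other chromosomes. New regions there likewise had a higher share at 4.5 hpf, 66.0% against 49.5%. Covered length on chromosome 4 itself changed 1.08-fold from 4 to 4.5 hpf, above the 0.884- to 0.953-fold of 18 other chromosomes, and its part in both shares was not tested. Without chromosomes 1 and 10 to 14, which stand apart in the 4.5 hpf list, the share of lost regions on the other chromosomes was 40.7%. In the outer 1 Mb of the chromosomes 73.5% of regions were kept, against 66.2% in the interior, and coverage rose 2.12-fold and 2.00-fold.

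**Figure D4:**
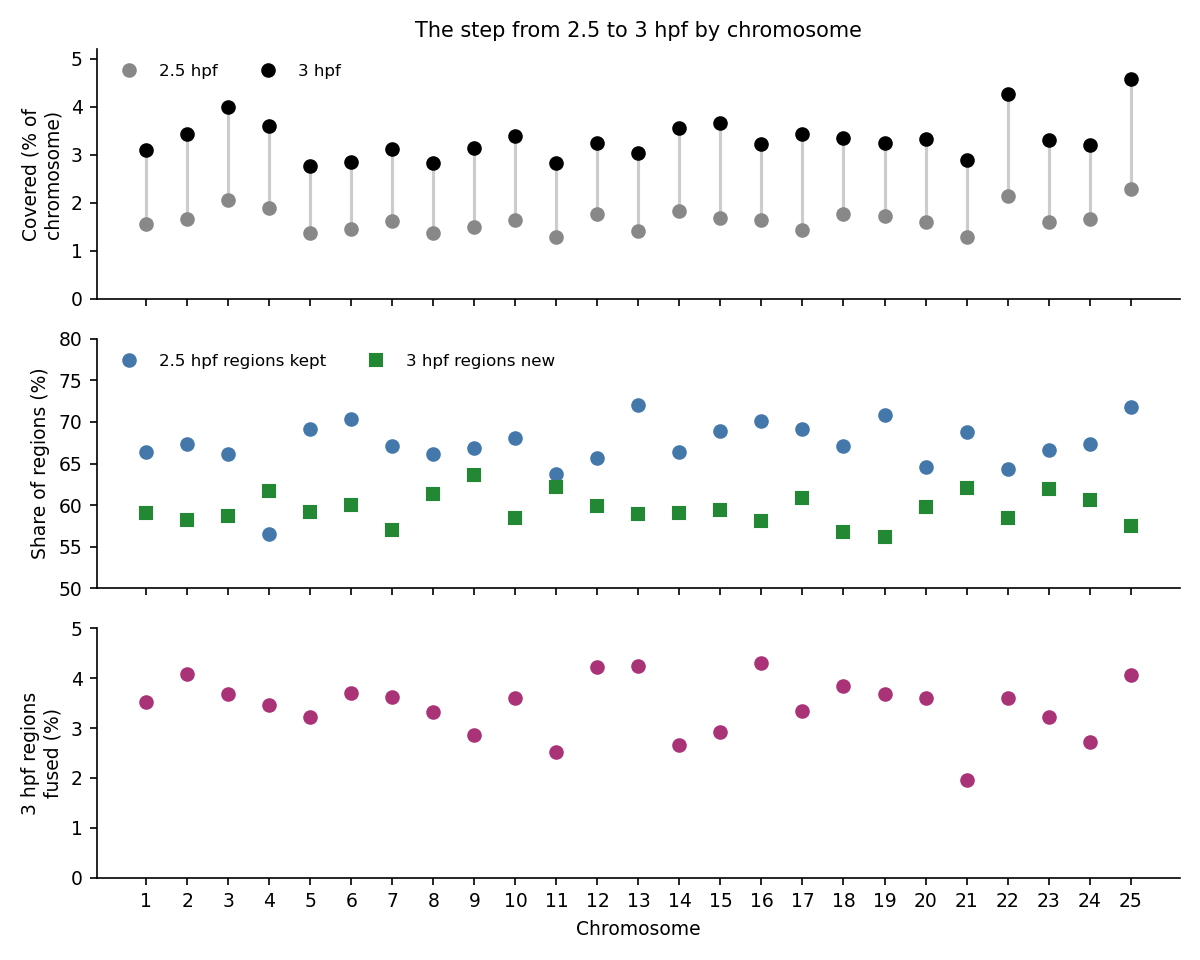
For each of the 25 chromosomes, the share covered at 2.5 and 3 hpf (%, top), the share of 2.5 hpf regions kept and of 3 hpf regions that were new (%, middle, axis from 50 to 80) and the fused share of 3 hpf regions (%, bottom). Coverage rises on every chromosome, and chromosome 4 has the lowest kept share, 56.5%.

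The lists of 2, 3.5, 4 and 4.5 hpf had no part in defining the classes and show what became of them. In the 4.5 hpf list 6 chromosomes stood apart, picked after their values were seen. From 4 to 4.5 hpf covered length changed 1.19- to 1.33-fold on chromosomes 1 and 10 to 13, 0.569-fold on 14 and 1.08-fold on 4, against 0.884- to 0.953-fold on the other 18. Without chromosomes 1 and 10 to 14 the shares present at 4.5 hpf were 79.1% of kept, 42.2% of lost, 78.1% of one-to-one, 92.4% of fused and 51.8% of new regions, close to the values over all chromosomes given below. Kept regions had more often been present at 2 hpf, in 27.5% of cases against 8.86% of lost regions. Read the other way, 86.2% of the 4091 regions already marked at 2 hpf were kept at 3 hpf, and 61.6% of the 15116 that first appeared at 2.5 hpf. The difference between these shares varied with width. Among regions of 500 bp or less the shares were 57.8% and 43.1%, between 500 bp and 1 kb 78.5% and 66.0%, between 1 and 2 kb 91.1% and 87.6%, and between 2 and 5 kb 95.1% and 94.7%. Between 5 and 10 kb they were 98.5% of 338 and 94.5% of 73, and over 10 kb 41 of 43 and 3 of 3. Kept regions were present again at 3.5 hpf in 90.8%, at 4 hpf in 91.0% and at 4.5 hpf in 77.0% of cases.

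Many of the lost regions came back. Of the 6375, 50.8% had at least 1 bp covered again at 3.5 hpf, 55.6% at 4 hpf and 41.3% at 4.5 hpf. By length, 48.0%, 53.3% and 41.2% of the lost regions was covered, and of the chromosomes 5.29%, 6.68% and 6.50%. The chromosome shares are no matched background, since 49.1% of lost regions lay within 5 kb of a 3 hpf region. In all 3 later lists 31.0% of the lost regions were present, and 2040 (32.0%) were in no list other than that of 2.5 hpf. Of kept regions, 3.63% were in neither the 2 hpf list nor any list after 3 hpf. At equal width the lost regions still returned less often. Between 500 bp and 1 kb, 59.7% of lost and 90.0% of kept regions were covered at 3.5 hpf, and between 1 and 2 kb 72.9% and 95.4%.

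New regions of 3 hpf persisted less often than those with a forerunner. At 3.5 hpf 63.5% of new regions were covered, against 90.9% of one-to-one regions and 97.7% of fused regions, and at 4.5 hpf 50.5%, 76.0% and 90.5%. Between 1 and 2 kb in width the difference was smaller, with 84.8% of new, 93.9% of one-to-one and 98.2% of fused regions covered at 3.5 hpf. Between 2 and 5 kb it was 92.1%, 97.3% and 98.0%. The difference was larger at both ends of the width range. At 500 bp or less 45.6% of new and 69.4% of one-to-one regions were covered. Between 5 and 10 kb the shares were 85.0% of 60 new, 98.1% of one-to-one and 98.7% of fused regions. Some of the new regions, 839 in number or 4.81%, had at least 1 bp covered in the 2 hpf list though none in that of 2.5 hpf. By distance to the nearest 2.5 hpf region, 71.4% of new regions under 1 kb away and 60.9% at 100 kb or more were covered at 3.5 hpf. At 4.5 hpf the 2 shares were 65.8% and 45.6%. The near ones were also wider, with 26.3% of them 500 bp wide or less, against 44.8% at 100 kb or more. Shares by distance were not compared at equal width, and the part of width in them was not tested.

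**Figure D5:**
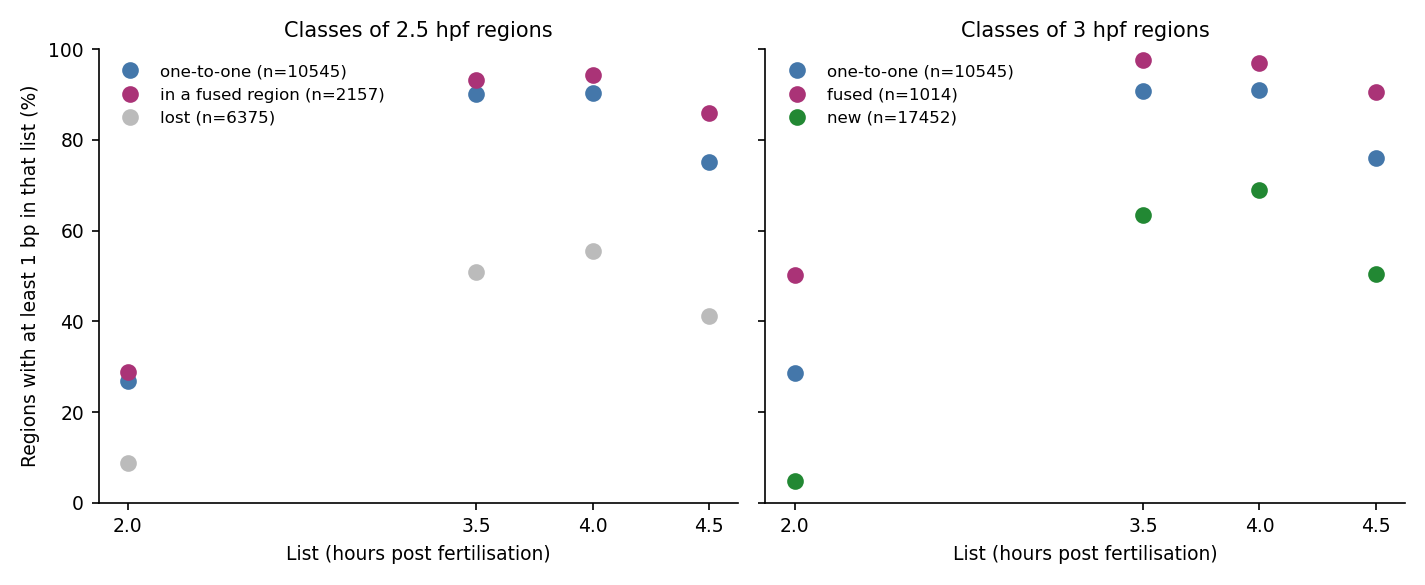
Share of regions with at least 1 bp covered in the lists of 2, 3.5, 4 and 4.5 hpf (%), for the one-to-one, fused and lost regions of 2.5 hpf (left) and the one-to-one, fused and new regions of 3 hpf (right); points are pooled lists without replicates. Lost regions reappear in 50.8% of cases at 3.5 hpf, and new regions persist in 63.5%, below both other classes.

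The authors' deposited columns, which the classes did not use, differed between them within each list. In the authors' deposited table of the earlier time, 185 of 6450 listed regions in lost places (2.87%) were named primary, against 24.7% in one-to-one pairs and 24.8% in fused places. Their median signal was 34.9, against 91.0 and 135. Of the regions named primary in the authors' deposited table, 94.9% were kept, and of those named secondary 62.5%. Median widths at 2.5 hpf were 1923.5 bp for primary and 599 bp for secondary regions. In the authors' deposited table for 3 hpf, 6.09% of the listed regions in new places were named primary, against 40.2% in one-to-one and 55.5% in fused places, with median signals of 70.2, 208 and 552.5. The median deposited p-value was 0.682 in new, 0.260 in one-to-one and 0.119 in fused places. The sources do not say what primary means or what the p-value tests. Widths also differ between these classes and between primary and secondary regions. The part of width in the signal, in the primary shares and in the kept shares was not tested.

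Single places show the range of the changes. The fused region that joined the most, chromosome 17, 39899412 to 39966486, measured 67.1 kb and was also the widest at 3 hpf. Its 5 earlier regions covered 22.2% of it at 2.5 hpf, after 10.7% at 2 hpf, and later lists covered 82.4% (3.5 hpf), 77.8% (4 hpf) and 83.6% (4.5 hpf). At chromosome 16, 18402870 to 18430215, 4 earlier regions covered 54.1% of a 27.3 kb fused region at 2.5 hpf, which was then covered over 99.8% or more in all 3 later lists. A 22.8 kb fused region at chromosome 13, 26709461 to 26732270, joined 5 regions and went from 20.2% at 2 hpf through 64.2% to 90.5% at 3.5 hpf and 86.0% at 4 hpf. These 3 places remained largely marked after fusion.

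Other wide regions of 3 hpf were covered much less afterwards. The second widest fused region, chromosome 17, 46465173 to 46520735, was 55.6 kb wide and joined 3 regions that covered 4.58% of it. At 3.5, 4 and 4.5 hpf 37.2%, 34.5% and 35.6% of it was covered. Next came 41.7 kb at chromosome 24, 16238694 to 16280414, covered over 40.9% at 2.5 hpf and 61.7%, 57.0% and 55.9% later. The pair with the most length gained, at chromosome 10, 16781660 to 16811760, grew from 339 bp to 30.1 kb and later coverage was 38.1% (3.5 hpf), 18.6% (4 hpf) and 99.9% (4.5 hpf, on a chromosome that stands apart in that list). At chromosome 2, 19446022 to 19471415, a 918 bp region was replaced by one of 25.4 kb, of which 66.4% and 54.8% was covered at 3.5 and 4 hpf. One more pair, at chromosome 4, 28552630 to 28574855, grew from 1395 bp to 22.2 kb and was later covered over 26.4% to 30.7%.

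The widest new regions, likewise named for their width at 3 hpf, were also covered much less afterwards, and part of that drop is built in too. The one at chromosome 21, 25838548 to 25855714, was 17.2 kb wide and 44.9 kb from any 2.5 hpf region, and its later coverage was 34.1% at 3.5 hpf, 0% at 4 hpf and 30.6% at 4.5 hpf. At chromosome 3, 55354546 to 55369732, the values for a 15.2 kb region were 24.7%, 8.24% and 33.1%. A 14.1 kb region at chromosome 2, 19473308 to 19487388, gave 20.7%, 0% and 26.7%, and it lies just beyond the grown pair named on that chromosome. All 3 were uncovered at 2 hpf.

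Over the 182 regions wider than 10 kb at 3 hpf, 33 (18.1%) were covered over less than 50% of their length at 3.5 hpf, and 27 of these 33 also at 4 hpf. These 33, picked after their values were seen, held 7 of the 8 new regions of this width, 14 of the 105 fused and 12 of the 67 one-to-one regions. Their median deposited signal, summed over the listed parts of a region, was 495 per kb, against 199 for the other 149, with overlapping ranges of 92.4 to 1324 and 62.1 to 1515. The lowest deposited p-value among a region's listed parts was above 0.9 in 78 of the 182, 18 of the 33 and 60 of the 149, and under 0.05 in 66, 6 and 60. The highest, which rises with the number of parts, was above 0.9 in 134, 29 and 105. Without any region over 10 kb in either list, the kept share was 65.1% and the coverage ratio 1.94.

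Loss of wide regions was rare. The widest lost region, 16.3 kb at chromosome 18, 31566539 to 31582829, had 4.51% of its length marked at 2 hpf, and regained 29.8% by 3.5 hpf, 34.8% by 4 hpf and 81.8% by 4.5 hpf. Of the next widest, one of 11.7 kb at chromosome 6, 51880368 to 51892101, had 19.3% marked at 2 hpf and one of 7603 bp at chromosome 12, 47011898 to 47019500, had none, and neither was covered at all in the lists from 3 hpf on. Among one-to-one pairs, the most length was shed at chromosome 3, 1487983 to 1493896, where 5914 bp became 1527 bp and no base was covered from 3.5 hpf on. A region at chromosome 24, 12098166 to 12103640, went from 5475 to 1684 bp, was covered again over 81.5% at 3.5 hpf and was fully covered at 4 and 4.5 hpf. At chromosome 1, 41571221 to 41579802, a region of 8582 bp gave way to one of 4657 bp, and 95.1% of the earlier length was covered at 3.5 hpf.

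Beside its neighbours, the step stood between the one before and the one after in most measures. Kept shares were 59.8% in the step to 2.5 hpf, 66.8% in the step to 3 hpf and 74.8% in the step to 3.5 hpf, and new shares 78.7%, 59.6% and 48.0%. One-to-one pairs widened in 73.4%, 73.1% and 67.3% of cases, by a median ratio of 1.59, 1.49 and 1.31. The share of earlier regions taken into a fused region was 7.22%, 11.2% and 10.3%, and fused regions made up 1.29%, 3.46% and 3.60% of the later list. Lost regions had a median width of 500 bp in each step. Consecutive steps share a list, the list grows at each step, fewer libraries carry the 2 hpf label (2, against 3 for 2.5 hpf), and those behind each list are not known, so these values are given side by side without a test.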

How the data were processed

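H3K9me3 CUT&RUN regions were taken from 6 deposited lists without headers, of which those named for 2.5 and 3 hpf were compared. By their values, the deposited columns hold positions, a region name, a whole-number score, a signal per region, and p-value columns. The score was not used, and the signal was compared within a list only. Per the submitters' processing notes, the tools were STAR, HOMER, Trim Galore, Picard, SAMtools and bedtools. Their versions and roles, the build, depth and pooling were not given in the sources used here.

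Touching regions on chromosomes 1 to 25 were merged. Regions were kept when at least 1 bp was covered in the other list, and distances run edge to edge. Positions count from 1, and each chromosome was taken to end where its last listed region ends (1345 Mb summed). Python 3.11.15, numpy 2.4.6, pandas 2.3.3 and matplotlib 3.10.9 were used. The classification was checked on 1200 planted places of known class. Named regions are the 3 widest lost, new and fused regions, the 3 fused regions joining most, and the 3 pairs gaining and shedding most. Members, classes and lists were chosen with earlier results of these data known. IgG libraries were not analysed here.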

Additional observations from a re-analysis of the deposited data

Results flagged for a closer look

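Regions on unplaced scaffolds, which entered no comparison above, numbered 831 at 2.5 hpf and 1193 at 3 hpf. They are given because they were left out of the main comparison. No control list was analysed here, so these counts have no background to be read against. They lay on 348 and 446 scaffolds, of which 328 were shared. After merging, 67.3% of the 794 scaffold regions at 2.5 hpf were kept, and 56.4% of the 1133 at 3 hpf were new. Fused regions made up 3.62%, widened pairs 68.9% of one-to-one pairs, and covered length rose 1.91-fold. The chromosomal values are 66.8%, 59.6%, 3.46%, 73.1% and 2.01. No test was made.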

How the results depend on the processing

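The 6 shares and ratios of the step were recomputed under 14 settings, giving 63 values, of which 59 stayed within 1.5 times of the main value, and 4 moved further. The kept and widened shares are too high to rise 1.5 times, so for them only a fall could count as moved. Staying within 1.5 times does not mean keeping the same side of 50%. With the 3 hpf list cut by p-value to the listed number of 2.5 hpf, new regions went from 59.6% to 45.7% of the list. The share of gained length in overlapping regions went from 45.8% to 52.3%, so both changed sides. Part of both changes is built in, since new regions had higher deposited p-values and were cut more often. With both lists cut, the new share was 62.8% (p-value under 0.05), 58.4% (named primary) and 53.0% (the 50% of each list with the lowest p-values). There a 3 hpf region over an earlier region outside the cut counted as new, so part of these 3 shares is built in. Against the full 2.5 hpf list, 1105 of 6677 listed 3 hpf regions named primary (16.5%) were in new places. Of the 3355 with a deposited p-value under 0.05, 287 were. The new share also changed sides when regions within 5 kb were not counted as new (44.1%). The widened share did so at a ratio of at least 1.5 (49.5%). The 4 values that moved further were the fused share of 3 hpf regions, 0.453% at a deposited p-value under 0.05 and 1.04% with regions named primary, and the share of gained length in regions overlapping earlier ones, 20.6% and 29.6% in the same settings. These settings left 1705 and 3404 regions at 2.5 hpf, and earlier regions outside the cut no longer counted as overlapped. Part of the lower fused shares and of the lower shares of gained length is therefore built in. The kept share ranged from 56.9% (3 hpf list cut by p-value to the listed number of 2.5 hpf) to 86.7% (regions of at least 1 kb in both lists). Both settings removed 3 hpf regions, which by itself can only lower the kept share. The new share went up to 75.6% at 50% overlap. There a 3 hpf region counted as new when under 50% of its own length was covered at 2.5 hpf, so strongly widened regions are included. The widened share went up to 80.6%, and the covered ratio ranged from 1.57 to 2.38. Leaving out regions over 10 kb was chosen after seeing the data. No paired analysis was possible because each time point is 1 pooled list without replicate numbers, and for the same reason no replicate could be left out. Depth is unknown, and its part in the longer 3 hpf list was not tested.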

Other observations

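Coverage rose almost everywhere at the scale of 1 Mb. Of 1336 full windows, 1322 (99.0%) were covered more at 3 hpf than at 2.5 hpf and 14 less, and 9 received no new region. The tenth of windows with the largest net gain held 32.1% of it. Windows named here were chosen after their values were seen. The first 1 Mb of chromosome 17 went from 9.74% to 19.7% covered, with 40 new regions, and chromosome 1, 27000001 to 28000000, from 12.6% to 22.1% with 19. At the other end, chromosome 23, 22000001 to 23000000, fell from 1.04% to 0.412%.

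When windows were ranked by coverage at 2.5 hpf and divided into 5 equal groups, new regions numbered 5.94 per window in the least covered group and 22.5 in the most covered one. Covered share went from 0.209% to 0.693% in the former, a ratio of 3.31, and from 4.62% to 8.42% in the latter, a ratio of 1.82. The ratio divides by the value that set the ranking, so part of its decline is built in.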
